A study of Oryctolagus cuniculus with 3 samples.

Results

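The angiopoietin and vascular endothelial growth factor (VEGF) systems were examined in cumulus-oocyte complexes from rabbit ovaries, in which somatic cumulus cells surround an oocyte. The 8 genes were TEK, TIE1, ANGPT1, ANGPT2, VEGFA, KDR, FLT1 and NRP1, chosen by an exact match of the gene name. They took up 9 of 39681 rows of the deposited gene table, because ANGPT1 had 2 rows. Per the labels, 150 IRA females aged 35 days were allotted at random to 3 groups and housed for 4 weeks in rooms with controlled air. The control library (CG) came from rabbits kept under less than 3 ppm of ammonia, and the library labelled LAC from rabbits kept under 10 ppm. The library labelled HAC, from rabbits kept under 30 ppm, gave values for long non-coding transcripts only. Each group had 1 library (number of animals behind it not given in the sources used here). The differences below therefore have no replicate check, no test was possible, and the intervals cover counting error only.

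The estimated counts summed to 78461882 in CG and 68523767 in LAC. The gene block in the file of HAC was identical to that of LAC in every cell and was used once. The origin of that shared block is uncertain. Its highest FPKM, 39492, is the maximum that the statistics block lists for HAC, while the block for LAC lists 86394. The numbers of valid reads, 72141648 and 72520954, also change places between both files. On the other side, its counts matched the coverage of long non-coding transcripts in the LAC column at 99.98% of 8638 loci and in the HAC column at 4.21% of 8795 loci (within 5% or 1 count). Every direction below is that of the library labelled LAC. The complexes carried their defining markers in both libraries, with BMP15, an oocyte growth factor, at 1771 CPM in CG against 345 CPM in LAC and GJA1, the gap junction gene of granulosa cells, at 4933 and 4814 CPM. CPM denotes estimated counts-per-million, scaled between the libraries by trimmed mean of M values (TMM).

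TEK, also called TIE2, is a receptor tyrosine kinase best known from endothelial cells. ANGPT1 activates it, ANGPT2 acts on it as an antagonist or a weak agonist depending on context, and TIE1 is a related receptor that pairs with it. VEGFA signals mainly through KDR, also called VEGFR2, while FLT1, or VEGFR1, binds it tightly and can act as a decoy, and NRP1 is a co-receptor. In the ovary, granulosa cells produce VEGFA, and the blood vessels of a growing follicle lie in the theca outside the granulosa layer.

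TEK and FLT1 were lower in LAC and ANGPT2 was higher, while VEGFA and the other 4 genes stayed within the size rule. That rule asks for a difference of at least 1 in log2(CPM + 1) and for at least 10 estimated counts in the higher library. TEK showed the widest gap, ahead of FLT1 and ANGPT2. By this rule 2 of 8 genes were lower and 1 was higher. Among 15009 coding genes with enough counts, 11.0% were lower and 1.89% were higher, and with 8 genes a single call already makes up 12.5%. Rows without a RefSeq messenger RNA held 24.6% of all estimated counts in CG and 34.2% in LAC, so the libraries also differed in make-up. The median difference of the 8 genes was -0.14, equal to the median of -0.14 over coding genes. That median says little about the 8 genes, whose differences ran from -3.19 to 1.37. KDR and TIE1 had few counts, where the added 1 CPM presses differences toward 0.

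Of the angiopoietin receptors, TEK (OryCun2.0, NC_013669.1:26309385-26437934, minus strand) had 3696 estimated counts in CG and 287 in LAC. Scaled, TEK stood at 46.7 CPM (95% interval 44.6 to 48.9) in CG against at 4.23 CPM (3.58 to 4.99) in LAC. TEK was thus 11.0-fold lower in LAC (interval 9.29 to 13.1), a difference of -3.19 in log2(CPM + 1). Only 11 of the 15009 coding genes had a more negative difference. In bulk RNA, fewer cells of a type and less RNA per cell cannot be told apart. TIE1 (NC_013681.1:123338722-123356999, minus strand) was close to the detection limit, with 12 estimated counts in CG and 18 in LAC. Its levels were 0.15 CPM (0.056 to 0.33) and 0.27 CPM (0.12 to 0.50), intervals that overlap. The TIE1 ratio of LAC to CG was 1.75 with an interval of 0.56 to 5.97, so a change of that gene in either direction was not detectable at this depth.

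Of the angiopoietins, the TEK agonist ANGPT1 and the context-dependent ligand ANGPT2 behaved differently. ANGPT1 (NC_013671.1:122698220-122945631, minus strand) had 7.38 CPM (6.55 to 8.27) in CG against 6.36 CPM (5.54 to 7.27) in LAC. The ratio for ANGPT1 was 0.86 with an interval of 0.72 to 1.03, which includes no change. A second row named ANGPT1, an assembled fragment without a strand at 122696215 to 122697715, starts 505 bases beyond the 3′ end of the gene. That fragment had 3.12 CPM in CG against 4.33 CPM in LAC, a ratio of 1.39 (1.08 to 1.77), and whether its reads belong to ANGPT1 is not given in the file. ANGPT2 (NW_003159339.1:617303-676113, plus strand) had 289 estimated counts in CG and 750 in LAC. That is 3.65 CPM (3.09 to 4.31) in CG against 11.0 CPM (9.95 to 12.2) in LAC, 3.03-fold higher (2.48 to 3.68), with a difference of 1.37. Of the coding genes, 126 had a larger positive difference than ANGPT2.

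**Figure D1:**
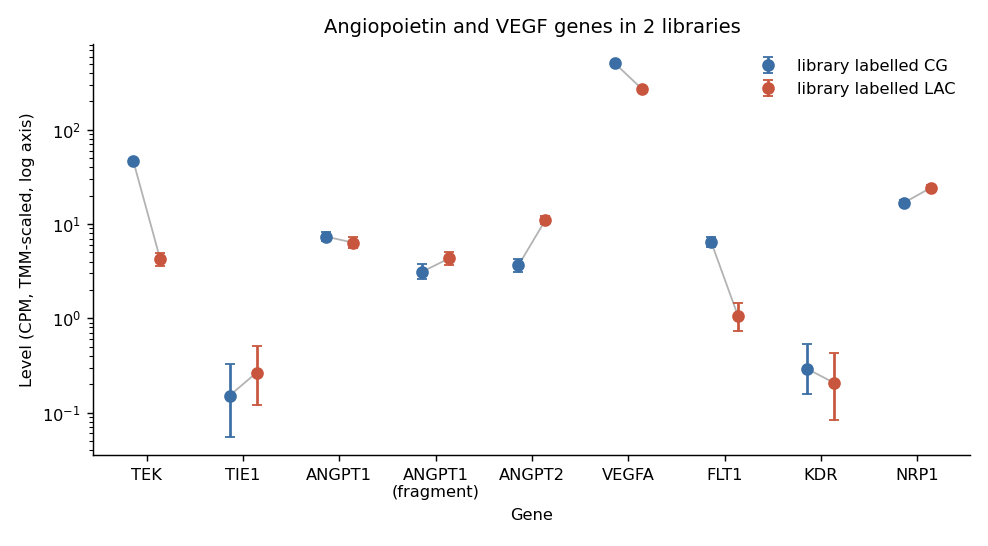
Level of each gene in CPM on a log axis in the library labelled CG and the library labelled LAC, with exact Poisson 95% intervals on halved counts. TEK goes from 46.7 to 4.23 CPM and FLT1 from 6.52 to 1.06 CPM, ANGPT2 goes from 3.65 to 11.0 CPM, and the intervals of TIE1 and KDR overlap.

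The ligand VEGFA (NC_013680.1:33199538-33214875, plus strand) had 40290 estimated counts in CG and 18559 in LAC, the most of the 8 genes in each library. Its level was 509 CPM (502 to 516) in CG against 273 CPM (268 to 279) in LAC, 1.86-fold lower (1.82 to 1.91). The counting intervals do not overlap, yet the difference of -0.89 did not reach the size rule. Of the coding genes, 13.1% had a more negative difference than VEGFA.

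The VEGFA receptors did not share a direction. FLT1 (NW_003159361.1:1361688-1559459, minus strand) had 516 estimated counts in CG and 72 in LAC, or 6.52 CPM (5.75 to 7.36) and 1.06 CPM (0.74 to 1.47). FLT1 was 6.15-fold lower in LAC (4.33 to 8.97), with a difference of -1.87. KDR (NC_013683.1:93608021-93652418, plus strand), the main signalling receptor, had 23 and 14 estimated counts. KDR thus lay at 0.29 CPM (0.16 to 0.53) in CG against 0.21 CPM (0.083 to 0.42) in LAC, and its ratio of 0.71 had an interval of 0.23 to 1.87. The co-receptor NRP1 (NW_003159350.1:2563907-2671937, plus strand) had 16.8 CPM (15.5 to 18.1) in CG against 24.2 CPM (22.6 to 25.9) in LAC. NRP1 had a ratio of 1.44 (1.30 to 1.60), and its difference of 0.51 did not reach the size rule.

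**Figure D2:**
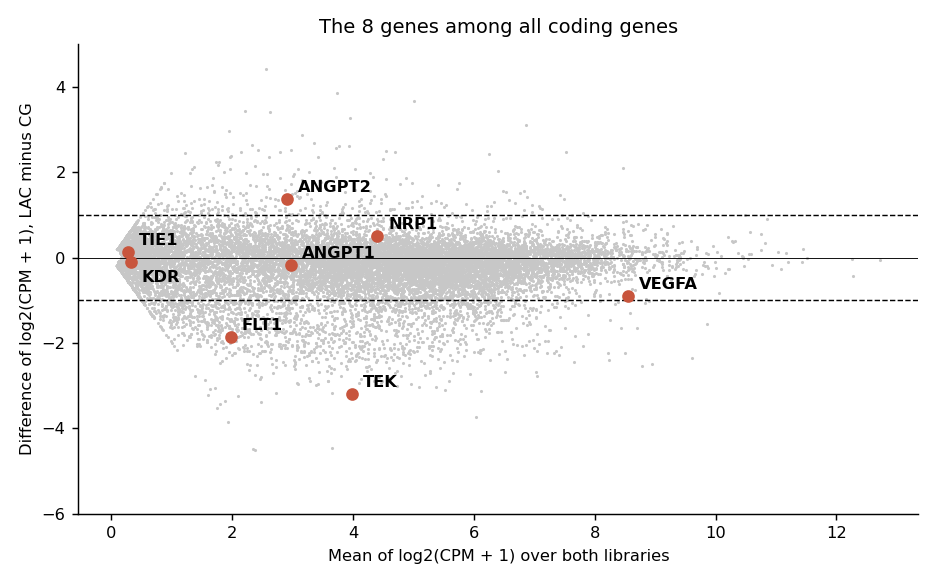
Difference of log2(CPM + 1), LAC minus CG, against the mean of log2(CPM + 1) over both libraries for 15009 coding genes (grey) and the 8 genes (red), with dashed lines at the size rule of 1. TEK lies near the lower edge of the cloud at -3.19, FLT1 lies at -1.87 and ANGPT2 at 1.37, and the other 5 genes lie between the lines.

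Between genes, levels can be compared only per length, for which the file gives FPKM. In CG the deposited FPKM ran in the order VEGFA (81.1), TEK (21.3), ANGPT1 (13.9), NRP1 (10.2), ANGPT2 (4.27), FLT1 (2.48), KDR (0.06) and TIE1 (0.03). In LAC, VEGFA (41.7) was followed by NRP1 (14.1), ANGPT2 (12.4), ANGPT1 (11.5), TEK (1.84), FLT1 (0.38), TIE1 (0.06) and KDR (0.04). TEK took place 2 in CG and place 5 in LAC, and ANGPT2 took place 5 and place 3. KDR and TIE1 were the last 2 in both libraries, and their order cannot be told apart at 12 to 23 estimated counts. With 1 library a group there is no spread to separate other neighbours, such as ANGPT2 and ANGPT1 in LAC. The FPKM scale between genes is uncertain, since at 9831 loci with a single long non-coding transcript the FPKM of locus and transcript lay within 10% of each other at only 8.48% in CG.

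Ratios between pairs of genes within a library depend neither on the scaling of the libraries nor, when compared between libraries, on gene length. These ratios were added after the levels had been seen. The ratio of ANGPT1 to ANGPT2 counts was 2.02 in CG and 0.58 in LAC, 3.51-fold lower (2.67 to 4.57). The ratio of TEK to ANGPT2 showed the widest shift, from 12.8 to 0.38, 33.4-fold lower (25.5 to 43.2). TEK and its agonist ANGPT1 shifted from 6.33 to 0.66, 9.53-fold lower (7.38 to 12.2).

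In the VEGF system, the ratio of VEGFA to FLT1 went from 78.1 to 258, a 3.30-fold change (2.32 to 4.82). VEGFA to its co-receptor NRP1 went from 30.4 to 11.3, 2.69-fold lower (2.42 to 2.99). Between both genes lower by the size rule, the ratio of TEK to FLT1 went from 7.16 to 3.99, 1.80-fold lower (1.18 to 2.66). Of 28 pairs, 21 had a counting interval that left out 1, among them all 15 pairs that hold neither KDR nor TIE1. KDR and TIE1 had the fewest counts, and the intervals hold counting error only, so this number depends on depth. The share over pairs of other coding genes was not computed, so the number is not a result about these genes. The intervals of the 28 pairs are not adjusted for their number, and they share genes.

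**Figure D3:**
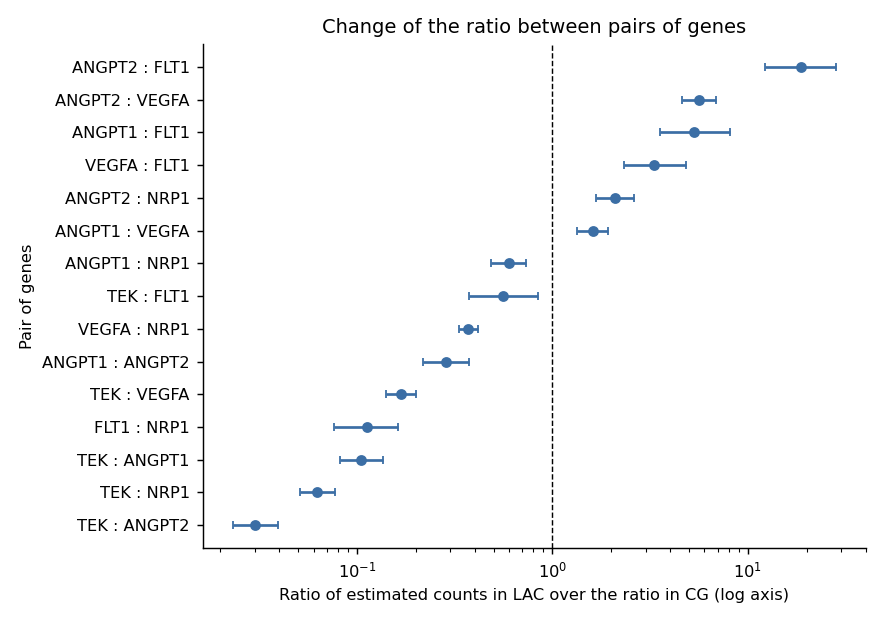
Ratio of estimated counts in LAC divided by the ratio in CG, on a log axis, for the 15 pairs that hold neither KDR nor TIE1, with exact conditional 95% intervals on halved counts. The ratio of TEK to ANGPT2 lies farthest to the left and the ratio of ANGPT2 to FLT1, at 18.6, farthest to the right, and no interval crosses the dashed line at 1.

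Other ligands, receptors and partners of both systems went both ways. Of 24 listed genes 21 were matched by name. By the size rule 4 were lower and 2 higher, or 19.0% and 9.52%, against 11.0% and 1.89% of coding genes. The median difference was 0.16 against the -0.14 of coding genes. PTPRB, a receptor phosphatase known as VE-PTP that removes phosphate from TEK, had 40.8 CPM in CG against 7.07 CPM in LAC, 5.78-fold lower (5.04 to 6.64). An assembled row of the same name on the opposite strand overlaps it and had 40.5 and 6.32 CPM, so the reads of both PTPRB rows may not be separable. PGF, a placental growth factor that binds FLT1, was 2.92-fold lower, at 3.95 and 1.35 CPM, and ITGB3, an integrin subunit, 2.12-fold lower, at 123 and 57.8 CPM. The semaphorin SEMA3E had 3.32 and 0.24 CPM, 14.1-fold lower (6.98 to 33.5).

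On the higher side, NRP2, the second neuropilin and a co-receptor for VEGFC, had 3.78 CPM in CG against 12.4 CPM in LAC, 3.27-fold higher (2.70 to 3.96). SEMA3A, a semaphorin that binds NRP1, had 0.69 and 3.42 CPM and was the other higher gene. VEGFC, the ligand of FLT4, had 43.8 CPM in CG against 37.2 CPM in LAC, and FLT4 itself had 0.32 and 0.50 CPM. ANGPT4, a further TEK ligand, had 0.29 and 0.10 CPM. VEGFC, FLT4 and ANGPT4 did not reach the size rule, nor did the most highly counted members ITGB1 (589 and 606 CPM), HSPG2 (184 and 255 CPM) and ITGAV (129 and 161 CPM), which encode integrin subunits and the proteoglycan perlecan.

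Among the intracellular signal carriers below the receptors, 27 of 29 matched genes had enough counts. By the size rule 3 were lower, or 11.1%, and 0 higher, with a median of -0.21. FYN, a SRC family kinase, had 23.0 CPM in CG against 5.95 CPM in LAC. PTPN1, a tyrosine phosphatase that acts on several receptors, had 79.9 and 24.5 CPM, and PRKCB, a protein kinase C, 1.78 and 0.27 CPM. FOXO1, a transcription factor that TEK signalling holds out of the nucleus, had 1340 and 2518 CPM, a ratio of 1.88 and a difference of 0.91 that stayed below the rule. The share of lower calls was close to the background of coding genes.

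Genes of oxygen sensing and targets of the hypoxia response, to which VEGFA belongs, had 3 of 20 lower, or 15.0%, and 0 higher. The coding gene shares were 11.0% and 1.89%. The median of the list was -0.22. HIF1A, the oxygen-regulated transcription factor, had 679 CPM in CG against 728 CPM in LAC, and EPAS1, its relative, 324 and 280 CPM. EGLN3, an oxygen-dependent hydroxylase of HIF proteins, was 3.20-fold lower (87.5 and 27.4 CPM). KDM3A, a histone demethylase, was 2.64-fold lower and NDRG1 2.11-fold lower. P4HA1, a collagen prolyl hydroxylase, had 386 and 299 CPM. Among the listed genes only EGLN3, KDM3A and NDRG1, at -1.05, had a more negative difference than the -0.89 of VEGFA. The next value above that of VEGFA was LDHA, at -0.85, and P4HA1 lay at -0.37.

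Other genes of vessel growth and stability had 3 lower and 4 higher of 26 with enough counts, or 11.5% and 15.4%, with a median of -0.05. FGF2, a fibroblast growth factor, went from 3.02 CPM to no count. With LAC set to 6 estimated counts, about 3 reads, FGF2 was 34.2-fold lower, and the lower end of its counting interval was 27.5-fold. DLL4, a Notch ligand, had 6.16 and 1.12 CPM, and EFNB2, the ephrin-B2 ligand, 54.2 and 24.3 CPM. Higher were MET, the receptor for hepatocyte growth factor, 3.32-fold (3.88 and 12.9 CPM), PDGFRB, a receptor of pericytes and other mesenchymal cells, 2.58-fold, VASH1, 2.11-fold, and EDN1, with no count in CG and 1.81 CPM in LAC. THBS1, an inhibitor of vessel growth, had 991 and 1085 CPM, EPHB4 had 251 and 142 CPM and S1PR1 had 75.5 and 113 CPM, none of which reached the rule. Over all 4 lists, 13 of 94 genes were lower, or 13.8%, and 6 were higher, or 6.38%. Of coding genes, 11.0% were lower and 1.89% higher.

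**Figure D4:**
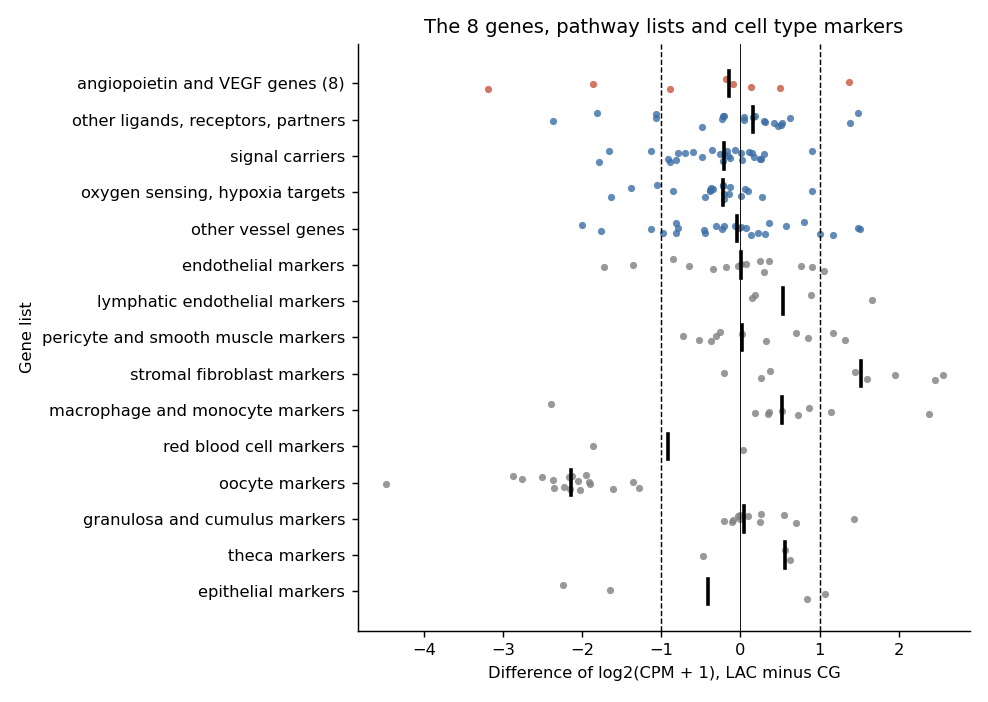
Difference of log2(CPM + 1), LAC minus CG, of each gene with at least 10 estimated counts in the higher library, for the 8 genes (red), 4 pathway lists (blue) and 10 cell type marker lists (grey), with black bars at the medians and dashed lines at the size rule of 1. All 18 oocyte markers lie below -1, and the medians of the endothelial and granulosa lists lie close to 0. Most endothelial markers shown had below 1 CPM in CG, where the pseudocount of 1 CPM presses differences toward 0.

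Markers of the cells that could carry these receptors were read beside them. Several endothelial markers had little signal in either library. PECAM1 had 0.96 CPM in CG against 1.33 CPM in LAC, and VWF had 0.91 and 1.35 CPM. CLDN5 had 0.20 and 0.27 CPM, and CDH5 had no count and 0.71 CPM. The ratio intervals of PECAM1 (0.88 to 2.19), VWF (0.94 to 2.37) and CLDN5 (0.45 to 3.91) include 1, so their direction was not detectable. CDH5 was higher in LAC, with an interval that starts at 7.02. None of these reached the size rule, while the better counted RAMP2, TAL1, MMRN2 and CLEC14A, given below, were lower. Of 20 matched endothelial markers, 6 had no count in CG and 3 none in LAC. The list had 2 lower, RAMP2 (8.50 and 1.88 CPM) and TAL1 (2.85 and 0.50 CPM), and 1 higher, CD34 (0.15 and 1.38 CPM). Of 15 with enough counts, 8 lay above 0 and 7 below, with a median of 0.01. Most of these lay below 1 CPM in CG, where a pseudocount of 1 CPM allows no lower call and presses differences toward 0. The median therefore does not show that endothelial content was unchanged. The summed level of the list was 35.5 CPM in CG and 21.1 CPM in LAC, of which MMRN2 made up 17.3 and 9.19 CPM. CLEC14A had 2.56 and 1.27 CPM, a ratio of 0.49 (0.34 to 0.71). EMCN had 1.15 and 0.69 CPM, a ratio of 0.60 with an interval of 0.36 to 1.02, which includes no change. The part of endothelial cells in the TEK difference was not tested.

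Oocyte genes were low in LAC, as TEK and FLT1 were. All 18 listed oocyte markers were lower by the size rule, with a median of -2.14 and a summed level of 4894 CPM in CG against 956 CPM in LAC, 5.12-fold lower. WEE2, a kinase of meiotic arrest, had 1170 and 206 CPM, KPNA7, an oocyte importin, 344 and 49.7 CPM, and MAEL, a germ-line piRNA factor, 129 and 16.6 CPM. GJA4, an oocyte gap junction gene, had 23.0 and 0.074 CPM, the latter from only 5 estimated counts. Its 313-fold difference thus had a wide interval, 88.9 to 1267. The part of the oocyte gene difference in the TEK and FLT1 differences was not tested. Granulosa and cumulus markers summed to 16912 and 16725 CPM, with a median of 0.05 and 1 of 12 higher, PTX3. In that list VCAN, a matrix proteoglycan, had 2933 and 2921 CPM.

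Stromal fibroblast markers were high in LAC, as ANGPT2 was, with 5 of 8 higher, a median of 1.52 and a summed level of 36.6 CPM in CG against 140 CPM in LAC. DCN, the proteoglycan decorin, had 4.46 and 31.1 CPM, POSTN, periostin, 9.99 and 59.5 CPM, and COL3A1, a fibrillar collagen, 2.03 and 10.8 CPM. Pericyte and smooth muscle markers had 2 of 11 higher, DES and PDGFRB, 0 lower, a median of 0.02 and sums of 83.5 and 91.3 CPM. Among them RGS5, a pericyte gene, had 11.8 and 9.73 CPM. The part of these cells in the ANGPT2 difference was not tested.

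The remaining marker lists were small. Macrophage and monocyte markers had 2 of 9 higher, MRC1 (0.73 and 8.04 CPM) and CD163, and 1 lower, MSR1 (47.3 and 8.20 CPM). Their sums were 53.5 and 27.9 CPM, most of the first being MSR1, while 8 of 9 lay above 0 and the median was 0.52. Lymphatic endothelial markers had 1 of 4 higher, LYVE1 (0.39 and 3.42 CPM), and 0 lower. Epithelial markers had 2 of 4 with enough counts lower, CDH1 (64.1 and 12.8 CPM) and EPCAM (17.7 and 4.95 CPM), and 1 higher, KRT18. Theca markers had 0 of 3 past the rule, a median of 0.56, and STAR at 68.0 and 48.7, LHCGR at 34.2 and 50.8 and CYP17A1 at 0.28 and 0.97 CPM. Red blood cell markers had 1 of 2 lower, SLC4A1 (3.68 and 0.28 CPM). Over the 10 lists 24 of 86 genes were lower, or 27.9%, and 13 higher, or 15.1%, against 11.0% and 1.89% of coding genes. Of the 24 lower genes, 18 were the oocyte markers.

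For each gene past the size rule, the coding genes with the nearest levels in the plane of both libraries were listed, out of 12532 with a symbol of their own. Nearest to TEK were GFRA1, a receptor subunit for glial cell line-derived factors (46.5 and 5.23 CPM, distance 0.25 in log2(CPM + 1)), the transcription factor FOXI3 (35.6 and 4.33 CPM) and ATP6V0A4, a proton pump subunit (35.9 and 5.04 CPM). Nearest to FLT1 were RAP1GAP2, OLFML1 and NLRC5, at distances of 0.055 to 0.063. Nearest to ANGPT2 were the metalloprotease ADAM19 (3.62 and 10.6 CPM, distance 0.058), the matrix protein ASPN (3.25 and 11.7 CPM) and PDGFRB (3.86 and 9.95 CPM). With 2 libraries, nearness says only that the levels are alike.

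The rows within 50 kb of each gene were also read, a window chosen after the values had been seen. Of 21 such rows 19 had enough counts, and 3 were lower and 2 higher, where 8.51% and 4.23% of 29030 loci of all kinds were. Beside TEK, the row that holds EQTN, a gene best known for its acrosomal protein, lies 19586 bases away and went from 193 to 50.2 CPM, 3.84-fold lower (3.64 to 4.04). An unstranded assembled row between it and TEK, 13360 bases from TEK, went from 10.3 to 2.24 CPM, 4.60-fold lower (3.60 to 5.96). That row and the row of EQTN both carry the name LOC103345755, so they may be parts of the same locus. IFT74, on the other side at 44411 bases, had 9.85 and 7.78 CPM. Both calls beside TEK thus lie on the side of its 3′ end. On that same side, LOC100349205, at 22035 bases from TEK, went the other way without reaching the size rule. It had 1.53 CPM in CG against 2.24 CPM in LAC, a ratio of 1.46 (1.02 to 2.07).

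Near TIE1, TMEM125 was the remaining lower row, at 1.86 and 0.43 CPM. ANGPT2 lies inside a locus on the opposite strand, LOC108178882, which had 2.84 and 2.59 CPM. Both higher rows were unnamed, unstranded fragments beyond the 3′ end of ANGPT2, and they had 0.72 and 2.71 CPM at 714968 to 716533 and 0.025 and 1.37 CPM at 710458 to 710938. Beside FLT1, PAN3 had 173 and 107 CPM, 1.61-fold lower. No other row overlapped TEK, FLT1 or VEGFA.

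The HAC library could be read at 1 long non-coding transcript that overlaps one of the 8 genes. This was LOC103350802 at KDR (NC_013683.1:93648021-93652263, minus strand), which was listed at 0 FPKM in CG, LAC and HAC. The other 7 genes had no overlapping transcript in the long non-coding table, and 0 transcripts named one of the 8 as their gene. No value of the 8 genes themselves was analysed under the label HAC. Whether the shared gene block came from LAC or from HAC is uncertain, as stated above.

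Another pseudocount, count minimum or size rule cannot turn a direction. Under the 3 other scalings and the deposited FPKM, which can, each of the 8 genes kept its direction, although the counting intervals of the ratios of ANGPT1, TIE1 and KDR include 1. Under the 4 scalings TEK lay between -3.22 and -3.03, FLT1 between -1.89 and -1.75, ANGPT2 between 1.34 and 1.52 and VEGFA between -0.93 and -0.72. With a pseudocount of 5 CPM, FLT1, at -0.93, and ANGPT2, at 0.89, no longer reached the size rule. With the deposited FPKM, TEK was at -2.97, FLT1 at -1.33 and ANGPT2 at 1.35.

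**Figure D5:**
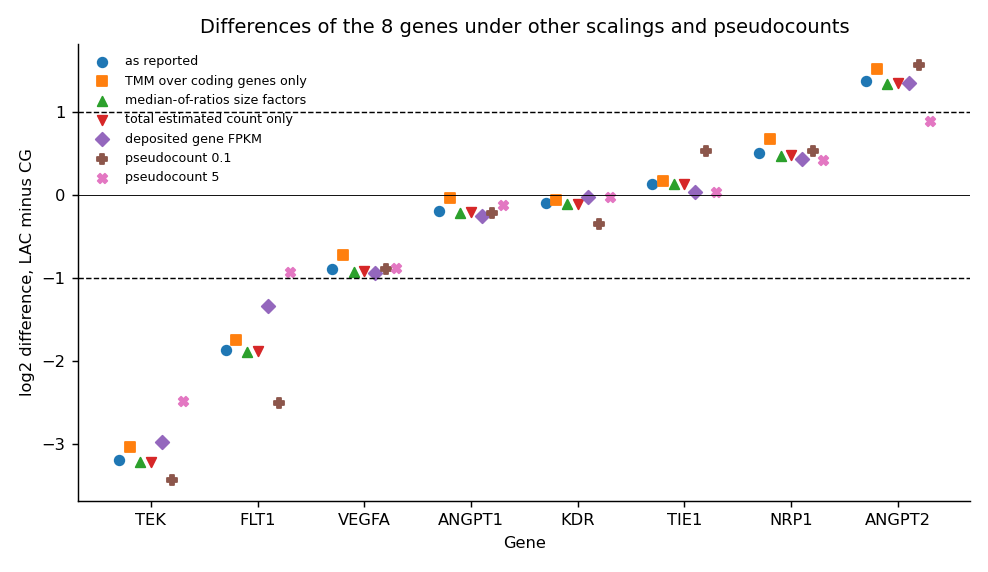
Log2 difference, LAC minus CG, of each of the 8 genes as reported and under 6 other scalings, units and pseudocounts, with dashed lines at the size rule of 1. TEK stays below -2 at every point, and FLT1 and ANGPT2 come inside the lines with a pseudocount of 5.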

How the data were processed

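Ribosomal RNA was removed and second strands were marked with dUTP, per the labels' protocols. Tools named in the submitters' processing notes are fastp and HISAT2, with OryCun2.0 as the build (assembly and quantification not given in the sources used here). The authors deposited estimated counts and FPKM per locus, and coverage (a depth signal) and FPKM per long non-coding transcript, per the file headers. At loci with 1 such transcript and coverage above 2, counts equalled coverage times length over 75 bases (within 5% or 1 count) at 99.9% of 8651 loci in CG, while reads have 150 bases. A count thus stands for about 0.5 reads, and intervals used halved counts. Of 12 per-sample columns, 2 were unused, the copied gene block.

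Counts were scaled by TMM over all 39681 rows (30% of ratios and 5% of levels trimmed), in SciPy 1.17.1, numpy 2.4.6 and pandas 2.3.3 under Python 3.11.15. The scaling and size rule were tested on simulated data with counting noise only and an even mix of rises and falls. That test does not cover spread between animals or the uneven changes seen here. Differences used a pseudocount of 1 CPM, which understates the change of low genes. Ratios have exact binomial 95% intervals. A row counts as coding where it holds a RefSeq messenger RNA. Where several rows had one symbol, the coding row with most counts was used. Of 13817 LOC names, 832 took a symbol from the RefSeq table of mOryCun1.1. Named genes are the 8 genes, up to 3 of each list with the highest mean CPM and 3 with the largest difference, and 3 nearest genes for each gene past the size rule. Further genes were named after their values were seen. Some genes that the rule names are not reported here. The 8 genes and the lists were chosen with earlier results of these data known. Alternatives covered scaling, unit, pseudocount, count minimum and size rule.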

Additional observations from a re-analysis of the deposited data

How the results depend on the processing

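The 8 genes gave 1 higher and 2 lower call, the 4 pathway lists 6 and 13, and the 10 marker lists 13 and 24. With a pseudocount of 0.1 CPM the higher calls came to 11 in the pathway lists and 23 in the marker lists. With a pseudocount of 5 CPM the 8 genes had 0 higher (ANGPT2 at 0.89) and 1 lower call, the pathway lists 1 higher and 7 lower, and the marker lists 5 higher. Deposited FPKM gave 8 higher calls in the marker lists. With a size rule of 0.5 the 8 genes had 2 higher calls, the pathway lists 13 higher and 24 lower, and the marker lists 26 higher. The cause of these shifts was not tested beyond the change of setting. Of the 54 alternative values for these counts, 42 stayed within 1.5 times the reported count. Among the 42, the 6 values without a count minimum could not move. A call with a pseudocount of 1 CPM needs at least 1 CPM, while 10 estimated counts are 0.13 CPM in CG and 0.15 CPM in LAC. For the long non-coding transcript at KDR, listed at 0 in all 3 libraries, no setting could give a call.

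Factors from coding genes alone moved the median of all loci from 0.01 to 0.13, and gave 396 coding genes higher and 1340 lower, where 283 and 1653 were reported. A pseudocount of 0.1 gave 943 and 2740, a pseudocount of 5 gave 112 and 909, FPKM gave 179 and 1428, and a size rule of 0.5 gave 1172 and 3808. No paired analysis was possible because each group had 1 library, and no library could be left out. Depth limits KDR and TIE1, whose ratio intervals include 1, and the endothelial markers with no count.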
